A study of Mus musculus with 30 samples.

Results

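The 10 genes described here make, fold and release intestinal mucus or set up the cells that do: Muc2, Fcgbp, Zg16, Tff3, Retnlb, Agr2, Capn9, Sytl2, Atoh1 and Spdef. They were taken by symbol from the 24746 gene symbols counted in every library, all 10 were present in all 30 libraries, and all 10 passed the filter on low counts. The mice were of the inbred strain C3H/HeOuJ, and RNA of their whole gut tissue was made into 3′ tag libraries, which read each transcript near its poly(A) tail. Mice were germ-free (GF), carried a specific-pathogen-free microbiota (SPF), or were born germ-free and given SPF microbiota in week 5 of life (COL). Distal colon was taken at 10 weeks of age from SPF and COL mice, either untreated or after dextran sulfate sodium (DSS), a sulfated sugar polymer that damages the lining of the colon, given at 1.5% for 4 days and followed by 2 days of water. Untreated GF, SPF and COL mice gave terminal ileum at 6 or 10 weeks of age. Each of the 10 groups holds 3 libraries, which gives 12 colon and 18 ileum libraries. No germ-free colon is among them, so germ-free values exist for ileum only, and whether a group's 3 libraries are 3 mice is not said in the labels, and p-values therefore measure the spread between these libraries, which may be technical.

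Goblet cells are secretory cells of the gut epithelium that store gel-forming mucin in granules and release it to the lumen, where it hydrates into the mucus layer that keeps bacteria away from the epithelium. The transcription factor ATOH1 commits progenitors to the secretory fate when Notch signalling is low, and SPDEF, an ETS factor that acts after it, promotes goblet cell maturation. MUC2 is the gel-forming mucin of the intestine. FCGBP, ZG16 and TFF3 are secreted with it, and AGR2 is a protein disulfide isomerase of the endoplasmic reticulum that mucin production needs. RETNLB, also called RELMβ, is a goblet cell protein with activity against bacteria that is known to depend on the microbiota and on type 2 cytokines.

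All 10 symbols matched a single protein-coding gene of GENCODE vM21 on mm10. Muc2 lies at chr7:141690340-141754693 on the plus strand, and Fcgbp, Zg16 and Sytl2 are on the same chromosome at chr7:28071236-28120862, chr7:127050156-127087328 and chr7:90302252-90410719. Tff3 (chr17:31125306-31129646) and Spdef (chr17:27714352-27728955) share chromosome 17. Retnlb is at chr16:48816856-48818892, Agr2 at chr12:35992907-36004087, Atoh1 at chr6:64729125-64731245 and Capn9 at chr8:124576111-124618731. No other gene counted in the files overlaps any of the 10. Promoter windows from RefSeq (GRCm38.p6, the assembly of mm10) were found for 6 members, and not for Retnlb, Zg16, Tff3 or Sytl2. The bases before the annotated gene start are shown for 3 of the 6 as examples. These are Muc2 and Fcgbp, which fell with DSS in SPF colon, and Agr2, which edgeR called in no comparison with all libraries. Capitals mark CAGCTG, an E-box form that ATOH1 can bind, and all 3 lie on the plus strand, at chr7:141690090-141690339, chr7:28070986-28071235 and chr12:35992675-35992906.
Muc2: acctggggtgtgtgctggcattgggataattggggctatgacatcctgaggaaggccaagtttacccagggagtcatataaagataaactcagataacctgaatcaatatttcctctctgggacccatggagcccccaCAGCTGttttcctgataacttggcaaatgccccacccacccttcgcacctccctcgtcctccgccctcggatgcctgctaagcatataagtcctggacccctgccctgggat
Fcgbp: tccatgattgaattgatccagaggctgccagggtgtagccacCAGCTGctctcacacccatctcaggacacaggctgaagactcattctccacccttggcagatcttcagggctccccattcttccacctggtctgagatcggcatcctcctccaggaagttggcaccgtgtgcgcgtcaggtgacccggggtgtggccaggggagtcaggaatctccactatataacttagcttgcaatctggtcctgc
Agr2: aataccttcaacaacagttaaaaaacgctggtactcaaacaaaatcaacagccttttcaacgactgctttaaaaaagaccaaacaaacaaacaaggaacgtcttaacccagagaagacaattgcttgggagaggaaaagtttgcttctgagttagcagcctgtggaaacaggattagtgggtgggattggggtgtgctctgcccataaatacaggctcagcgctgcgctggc

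The CAGCTG of Muc2 begins 112 bases before the gene start and that of Fcgbp 208 bases before it, and none was found in the windows of Atoh1, Spdef, Agr2 or Capn9. Atoh1 and Capn9 also fell with DSS in SPF colon, so the motif was not shared by all members that fell. Its part in expression was not tested. Searched on both strands, CAGCTG occurs in 13% of 32851 RefSeq promoter windows of 250 bases. GGAT, the core that SPDEF prefers, occurs in 74.1% of windows and was found in 5 of the 6, all but Atoh1. CCACG, part of an endoplasmic reticulum stress element, occurs in 28.3% of windows and was found in none of the 6. The STAT6-type motif occurs in 5.85% and was found only for Capn9, 144 bases before the start. No match overlaps another in these windows.

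Reads assigned to genes numbered 3830539 to 6791455 in a colon and 2233837 to 9088573 in an ileum library, and levels are counts scaled to the total of these reads (CPM). The tissue labels hold for the Paneth cell gene Lyz1, at 427 to 2781 CPM in every ileum and at most 8.48 CPM in any colon library. A pair of libraries stood apart. SPF DSS colon replicate 3 had the lowest value of all 30 libraries for each of 9 members, all but Retnlb, beside a summed level of 10 immune cell markers of 1188 CPM against 72.4 and 275 CPM in the other SPF DSS libraries and a sum of 13 epithelial markers of 7484 against 13313 and 13159 CPM. In ileum, SPF replicate 3 at 10 weeks was the shallowest library and had a summed level of 10 smooth muscle markers of 231 CPM, against 1788 and 2291 CPM in the other libraries of its group. Calls among the 10 genes that either library decides are given with and without it, and for the other gene lists the calls lost without it are named. In whole tissue, fewer goblet cells and less RNA per goblet cell cannot be told apart.

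In the ordering of the 10 groups by mean CPM, 8 of the 10 genes were lowest in SPF colon after DSS. The others, Retnlb and Agr2, were lowest in germ-free ileum at 6 weeks. The SPF DSS means include replicate 3, which stood apart. In replicates 1 and 2, Atoh1 (43.9 and 35.5 CPM), Spdef (15.1 and 16.5 CPM), Capn9 (13.1 and 11.9 CPM) and Sytl2 (17.2 and 16.3 CPM) lay within the range of the ileum libraries. Retnlb spanned by far the widest range, from 171 ± 25.4 CPM (SD, n = 3) in germ-free ileum at 6 weeks to 5859 ± 1275 CPM in COL colon after DSS, a ratio of 34.3 between group means. For the other members this ratio ran from 1.93 for Spdef to 5.11 for Tff3. Zg16 and Tff3 were highest in the germ-free ileum groups, at 10330 ± 919 CPM (6 weeks) and 3929 ± 594 CPM (10 weeks). Atoh1, Capn9 and Sytl2 were highest in untreated colon, at 98.4 ± 29.5 CPM (COL), 29.3 ± 13.3 CPM (SPF) and 39.6 ± 5.03 CPM (SPF). Muc2 was highest in SPF ileum at 10 weeks (6121 ± 2432 CPM) and lowest in SPF DSS colon (1351 ± 909 CPM). The highest rank rests on SPF ileum replicate 3, which stood apart, at 8786 CPM. Replicates 1 and 2 were at 4021 and 5556 CPM, beside 5199 to 5707 CPM in germ-free ileum at 10 weeks.

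Most neighbours in these orders overlapped. Of the 9 neighbouring pairs of groups, 2 were free of overlap for Muc2, Zg16 and Tff3, 1 for Fcgbp, Retnlb and Agr2, and 0 for Atoh1, Spdef, Capn9 and Sytl2. For Muc2 these were untreated COL colon above COL DSS colon, and COL DSS above SPF DSS colon. For Retnlb the step lay between COL and germ-free ileum at 10 weeks, where the lowest COL library (384 CPM) stood above the highest germ-free library (251 CPM). For Agr2 it lay between untreated SPF and COL colon and was nearly a tie (557.724 against 557.657 CPM). The plot of the 10 genes by library shows these orders.

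**Figure D1:**
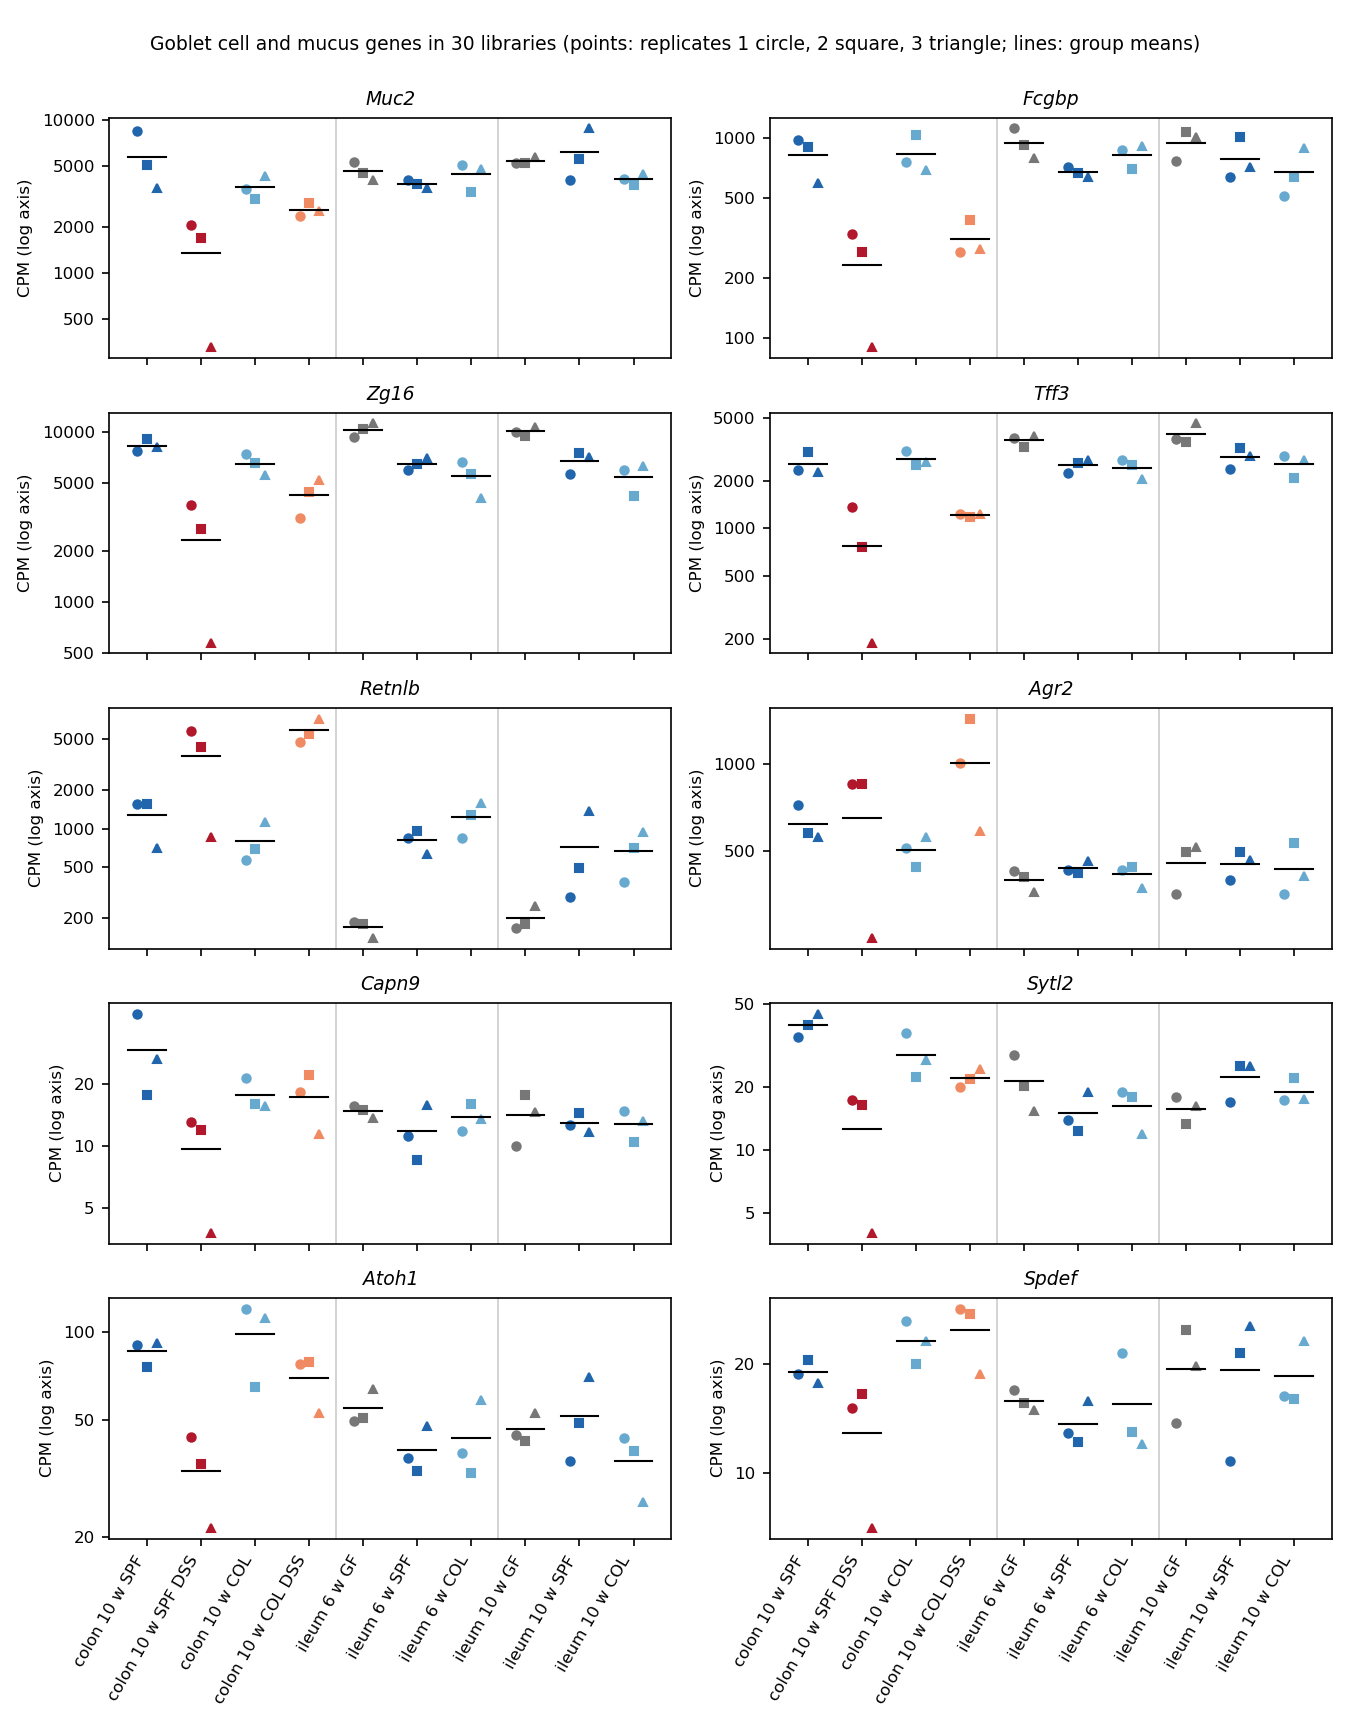
CPM of each gene (log axis) in the 30 libraries, in the order of the 10 groups, with points for libraries (circle, square and triangle for replicates 1, 2 and 3) and lines for group means. Retnlb lies at 869 to 7261 CPM in DSS colon, with 5 of 6 points above every untreated one, while 7 others drop in SPF DSS colon, most of all in replicate 3.

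The first comparison asks what DSS did to these genes in SPF colon. Of the 10, 7 fell and 1 rose at an adjusted p under 0.05 in the quasi-likelihood test of edgeR, adjusted by Benjamini-Hochberg over 12855 genes. Across all genes tested, 11.9% fell and 12.2% rose in this comparison. The median log2 fold change of the 10 genes was -1.54, against -0.03 over all genes.

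The gel-forming mucin and its companions were the members that fell most. In replicates 1, 2 and 3, Muc2 stood at 8394, 5050 and 3584 CPM in untreated SPF colon and at 2053, 1675 and 324 CPM after DSS. The groups did not overlap, and replicate 3 after DSS was the lowest library by far. Muc2 fell 4.00-fold (log2 fold change -2.0 ± 0.50 SE, adjusted p = 0.011).

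Fcgbp, which encodes a large secreted protein bound to the MUC2 network, read 972, 901 and 596 CPM without and 332, 269 and 89.2 CPM with DSS. Every DSS library was below every untreated one, and the gene fell 3.40-fold (-1.77 ± 0.38, adjusted p = 0.0045). Zg16, a lectin-like protein of the granules that binds Gram-positive bacteria, went from 7764, 9044 and 8176 CPM to 3704, 2699 and 577 CPM. It too fell without overlap, by 3.39-fold (-1.76 ± 0.47, adjusted p = 0.014).

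Tff3, a trefoil peptide that aids epithelial repair, was at 2340, 3032 and 2267 CPM untreated and at 1356, 760 and 189 CPM after DSS. It fell 3.13-fold without overlap (-1.65 ± 0.46, adjusted p = 0.019). Sytl2, which encodes a RAB27-binding protein of secretory granules, fell 2.96-fold, from 34.7, 39.3 and 44.8 CPM to 17.2, 16.3 and 4.01 CPM (-1.57 ± 0.37, adjusted p = 0.0073). Capn9, a calpain protease of the digestive tract, fell 2.87-fold, from 43.9, 17.6 and 26.5 CPM to 13.1, 11.9 and 3.78 CPM (-1.52 ± 0.41, adjusted p = 0.015). Both were free of overlap, though Capn9 rested on as few as 16 counts in the lowest library.

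The regulators split. Atoh1 read 90.1, 75.6 and 91.3 CPM untreated and 43.9, 35.5 and 21.5 CPM after DSS, and fell 2.42-fold without overlap (-1.27 ± 0.28, adjusted p = 0.0047). Spdef read 18.8, 20.5 and 17.7 CPM untreated and 15.1, 16.5 and 7.08 CPM after DSS. Its groups did not overlap either, but the difference did not pass the test (-0.48 ± 0.30, adjusted p = 0.26).

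A pair of members did not follow the mucin. Retnlb stood at 1567, 1551 and 710 CPM untreated and at 5790, 4369 and 869 CPM after DSS. DSS replicates 1 and 2 were above every untreated library, whereas replicate 3 lay among them. Retnlb rose 3.03-fold (1.60 ± 0.54, adjusted p = 0.046), a call close to the threshold that was lost in 9 of 12 alternatives. Agr2 was at 724, 579 and 558 CPM untreated and at 857, 854 and 251 CPM after DSS, and its log2 fold change was within 1 SE of 0.

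Leaving out SPF DSS replicate 3 left 7 members called. Capn9 was the one lost (-1.14, adjusted p = 0.054), while Muc2 (-1.53, adjusted p = 0.0092), Fcgbp (-1.37), Zg16 (-1.29), Tff3 (-1.18), Sytl2 (-1.15) and Atoh1 (-1.02) stayed past the threshold and Retnlb moved up to 2.08 (adjusted p = 0.0027). Over all genes the calls went from 3097 to 1915 without this library and to 2021 without SPF DSS replicate 2. The Retnlb call was lost with the replicate block (adjusted p = 0.078), no filter (0.12), library totals (0.051) and only the groups compared (0.084). It was also lost without SPF DSS replicate 1 (1.09, adjusted p = 0.16), without SPF DSS replicate 2 (1.47, adjusted p = 0.11) and without any of the 3 untreated libraries (adjusted p = 0.084 to 0.15). The count of members called fell to 5 without untreated SPF replicate 1, where Muc2 (-1.58, adjusted p = 0.055) and Capn9 (-1.09, adjusted p = 0.084) were lost as well. Tff3 was lost with only the groups compared (adjusted p = 0.060), without SPF DSS replicate 2 (0.061) and without untreated SPF replicate 2 (0.054).

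In COL colon, DSS moved fewer of these genes past the threshold: 1 rose and 1 fell of 10, beside 4.14% of all genes that rose and 3.0% that fell. Retnlb read 571, 692 and 1133 CPM untreated and 4770, 5546 and 7261 CPM after DSS. Every DSS library was above every untreated one, and Retnlb rose 7.80-fold (2.96 ± 0.57, adjusted p = 0.0075), a call that held in all 12 alternatives (adjusted p = 0.00013 to 0.047). Fcgbp was at 754, 1037 and 689 CPM untreated and at 267, 387 and 278 CPM after DSS, and fell 2.54-fold without overlap (-1.34 ± 0.38, adjusted p = 0.041). That call was lost on leaving out any 1 of the 6 libraries (adjusted p = 0.066 to 0.15).

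Muc2 in COL colon stood at 3506, 3038 and 4311 CPM untreated and at 2354, 2866 and 2543 CPM after DSS. The groups did not overlap, but the difference was within 1 SE of 0 in the model, which shares its spread across the 4 colon groups. Tff3 went from 3098, 2527 and 2635 CPM to 1240, 1172 and 1232 CPM, also without overlap, and did not pass (-1.10 ± 0.45, adjusted p = 0.16). It passed when only the 6 COL libraries were fitted (adjusted p = 0.003).

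Agr2 also had higher DSS values in COL colon, at 512, 442 and 558 CPM untreated and 1015, 1444 and 586 CPM after DSS. All 3 DSS libraries exceeded the untreated ones, replicate 3 only slightly, and the difference did not pass (1.07 ± 0.38, adjusted p = 0.10), although it did in DESeq2 (adjusted p = 0.049) and with only the COL libraries fitted (adjusted p = 0.019). Zg16 (-0.53 ± 0.45, adjusted p = 0.53) and Atoh1 (-0.43 ± 0.27, adjusted p = 0.38) were not called. Spdef, Capn9 and Sytl2 had log2 fold changes within 1 SE of 0. The plot of the DSS effect sets both responses side by side.

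**Figure D2:**
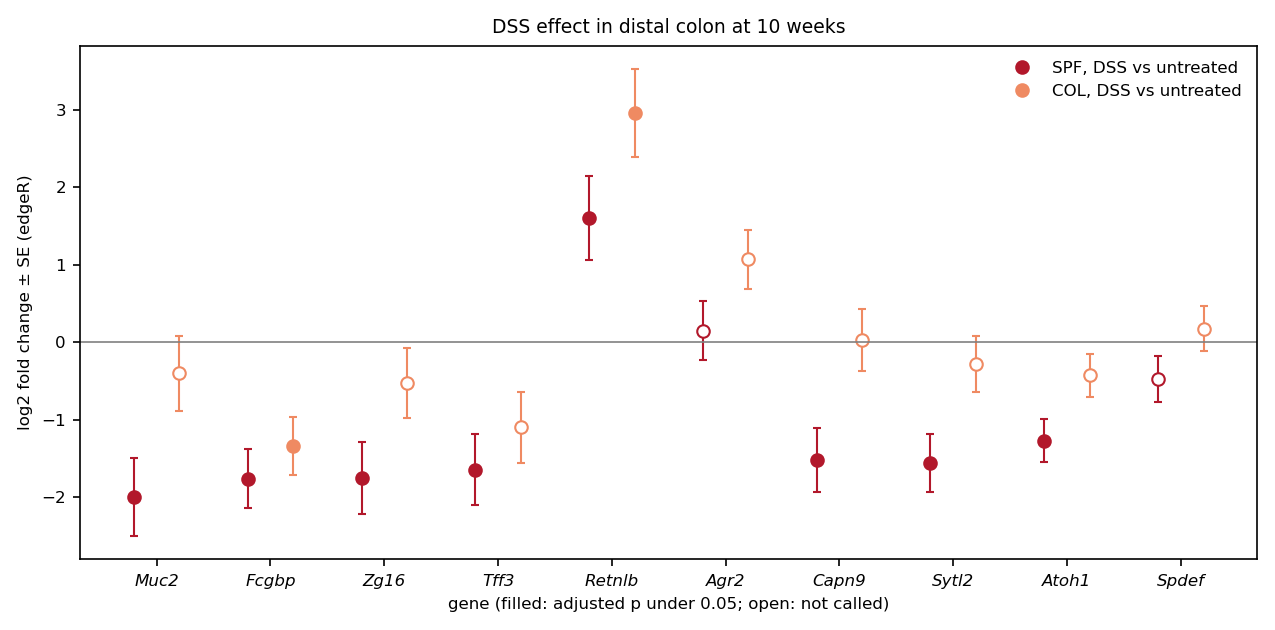
Log2 fold change ± SE of the 10 genes after DSS in SPF and COL colon (edgeR), with filled points for adjusted p under 0.05 and open points for the others. Retnlb is the filled point above 0 in both, and 7 filled points lie below 0 in SPF against 1, Fcgbp, in COL.

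A fall in one group and none called in the other does not show a difference, so the 2 microbiota histories were compared directly. Among untreated colon libraries no member was called between COL and SPF in edgeR, beside 0% of all genes, with 0 members and 988 genes at an unadjusted p under 0.05 and 0 members and 28 genes called by DESeq2. After DSS no member was called either, beside 0.00778% of all genes, with 2 members (Atoh1 and Spdef) and 1030 genes at an unadjusted p under 0.05 and 0 members and 4 genes called by DESeq2. All 10 log2 fold changes there were above 0, from 0.40 to 1.01, and their median was 0.78 against -0.00 over all genes.

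Libraries of COL and SPF mice after DSS did not overlap for 4 members, Muc2, Atoh1, Spdef and Sytl2, beside 6.67% of all genes with COL wholly above SPF. Atoh1 differed most (77.3, 78.5 and 52.8 CPM in COL against 43.9, 35.5 and 21.5 CPM in SPF, 1.01 ± 0.28, adjusted p = 0.53). Spdef (28.4, 27.4 and 18.8 CPM against 15.1, 16.5 and 7.08 CPM) gave 0.90 ± 0.30 (adjusted p = 0.53). Without SPF DSS replicate 3 the values were 0.77 for Atoh1, 0.61 for Spdef, 0.36 for Sytl2, which had been 0.77 ± 0.37, and 0.44 for Muc2, which had been 0.91 ± 0.49. Untreated, 2 members, Zg16 and Agr2, had every SPF library above every COL one, beside 5.76% of all genes. For Agr2 this was nearly a tie, with 557.724 CPM in the lowest SPF and 557.657 CPM in the highest COL library.

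The interaction, which asks whether the DSS effect differed between COL and SPF mice, called 0 members in edgeR, beside 0% of all genes. At an unadjusted p under 0.05 there were 4 members and 1122 genes, and DESeq2 called 0 members and 14 genes. All 10 estimates were above 0, with a median of 1.07 against 0.02 over all genes, and the largest were Muc2 (1.60 ± 0.69, adjusted p = 0.56), Capn9 (1.55 ± 0.58, adjusted p = 0.54), Retnlb (1.36 ± 0.75, adjusted p = 0.63) and Sytl2 (1.28 ± 0.52, adjusted p = 0.56). Without SPF DSS replicate 3 Muc2 was at 1.13, Capn9 at 1.18, Retnlb at 0.89 and Sytl2 at 0.87. The interaction and the comparison after DSS share the DSS libraries, so their signs are not independent.

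Markers of other cell types moved with DSS and are set beside these results. Summed smooth muscle markers were at 1088 to 3064 CPM in SPF DSS and 1437 to 4292 CPM in COL DSS colon, against 5485 to 6840 CPM in all untreated colon libraries. Summed absorptive cell markers (12 genes) were also lower after DSS, at 2328 to 5811 against 6728 to 10278 CPM, and proliferation markers (8 genes) were higher, at 758 to 1156 against 199 to 374 CPM. Lower after DSS, without overlap, were also the sums of 7 enteroendocrine (387 to 646 against 744 to 1156 CPM), 5 tuft cell (8.34 to 12.8 against 15.9 to 25.5 CPM) and 6 fibroblast and matrix markers (628 to 1007 against 1436 to 2070 CPM). The 8 Paneth cell markers summed to 1880 to 3314 CPM after DSS and 164 to 560 CPM untreated, nearly all of it Pla2g2a, a secreted phospholipase, at 1865 to 3310 CPM after DSS, while Lyz1 was at 1.18 to 5.45 CPM and Defa17, Defa24 and Defa22 had no count. Their part in the results was not tested. The gastric and Brunner gland markers Muc5ac, Muc6, Gkn1 and Gkn2 had no count in any colon library.

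Set against the epithelium alone, the 9 members other than Retnlb summed to 205, 196 and 120 CPM per 100 CPM of epithelial markers in untreated SPF colon and to 63.0, 48.2 and 19.6 after DSS. In COL colon the values were 145, 138 and 150 untreated and 87.6, 100.1 and 90.9 after DSS. DSS libraries lay below untreated ones in both histories, and the 3 COL DSS libraries above the 3 SPF DSS ones. Before division by the epithelial markers, the sums of the 9 members overlapped between SPF and COL DSS colon. The epithelial markers themselves summed to 7484 to 13313 CPM in SPF DSS and 9307 to 10927 CPM in COL DSS colon. These ratios were chosen after the values were seen and carry no test.

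**Figure D3:**
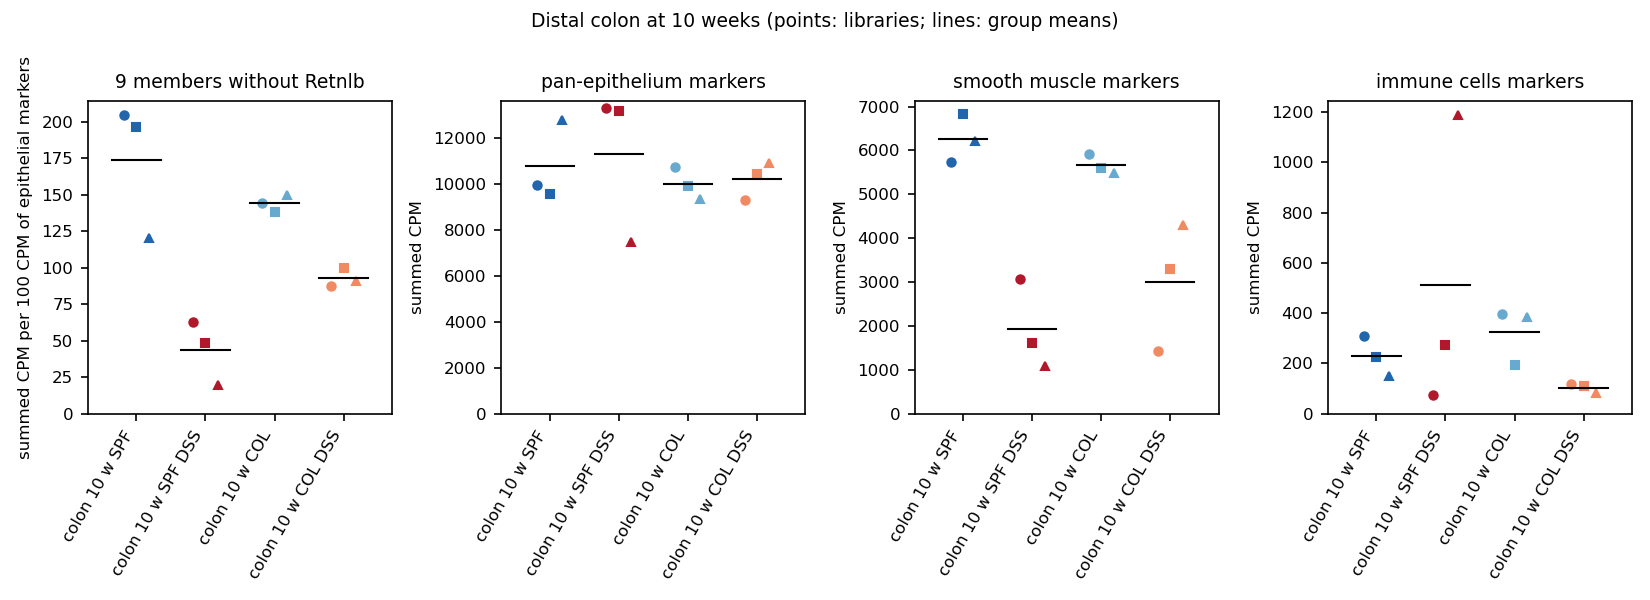
Summed CPM of the 9 members without Retnlb per 100 CPM of epithelial markers, and summed CPM of epithelial, smooth muscle and immune cell markers, in the 12 colon libraries (points) with group means (lines). The sum of the 9 members is lower after DSS in both histories per unit of epithelium, which does not hold for each member alone. SPF DSS replicate 3 (triangle) is the library with 1188 CPM of immune markers and 19.6 on the first axis.

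Ratios within a library do not depend on depth, and transcript length does not enter a comparison of the same ratio between libraries. Retnlb to Muc2 was 0.187, 0.307 and 0.198 in untreated SPF colon and 2.82, 2.61 and 2.68 after DSS, so the library that stood apart in every level had the same ratio as its group. In COL colon it was 0.163, 0.228 and 0.263 untreated and 2.03, 1.94 and 2.85 after DSS. Retnlb made up 34.7 to 42.2% of the summed CPM of the 10 genes in the 6 DSS libraries and 3.55 to 7.64% in the 6 untreated colon libraries. Agr2 to Muc2 was 0.417, 0.509 and 0.774 in SPF DSS and 0.431, 0.504 and 0.230 in COL DSS colon, above the 0.0863 to 0.156 of the 6 untreated libraries. Zg16 to Muc2, by contrast, overlapped between DSS (1.33 to 2.04) and untreated colon (0.925 to 2.28). These ratios, too, were chosen with the values known and carry no test.

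**Figure D4:**
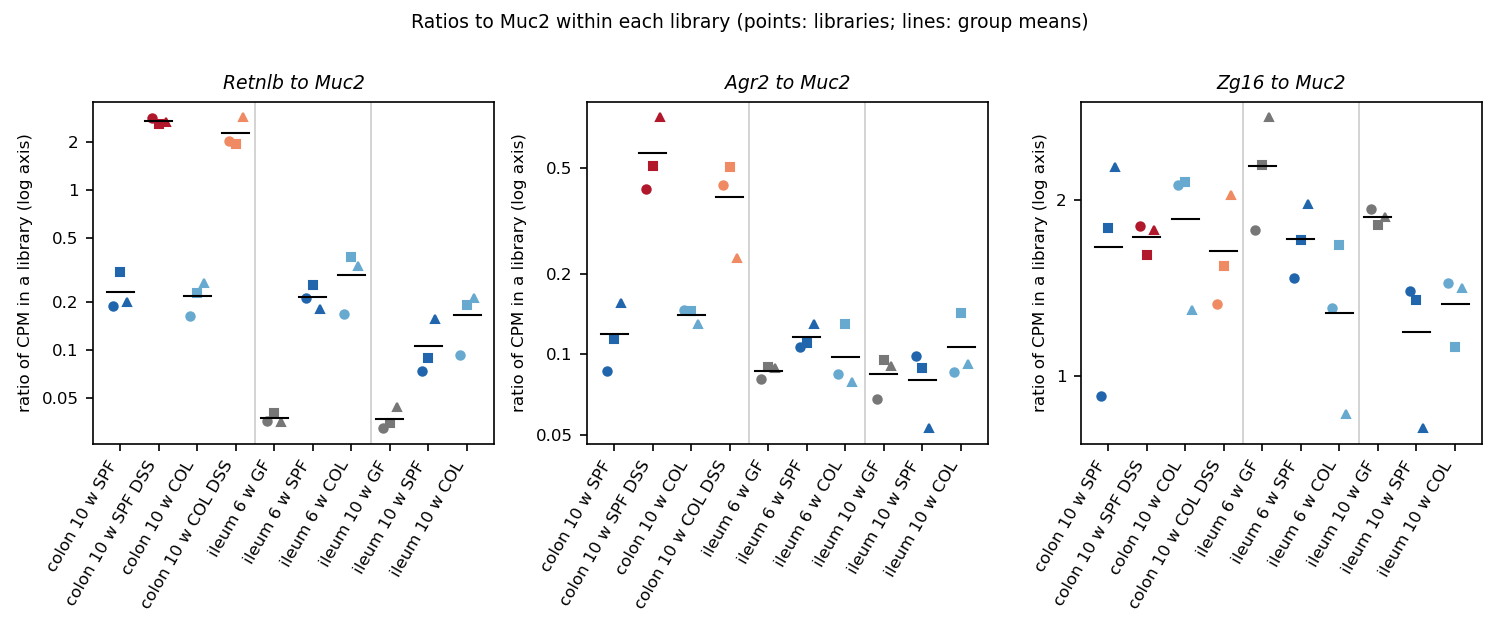
Ratio of the CPM of Retnlb, Agr2 and Zg16 to that of Muc2 within each of the 30 libraries (log axes), with lines for group means. Retnlb to Muc2 lies between 1.94 and 2.85 in the 6 DSS libraries, and at 0.0323 to 0.0440 in the 6 germ-free ileum libraries, while Zg16 to Muc2 stays between 0.814 and 2.77 throughout.

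Other genes of the secretory programme changed in part. The counts of each list after DSS stand beside 11.9% of all genes that fell and 12.2% that rose in SPF colon. In COL colon 3.0% of all genes fell and 4.14% rose. Of 16 regulators of the secretory lineage and Notch, 4 fell and 0 rose with DSS in SPF colon: Creb3l1 (-1.30 ± 0.41, adjusted p = 0.033), a stress transducer of secretory cells, Creb3l4 (-1.45 ± 0.50, adjusted p = 0.047), the Notch target Hes1 (-0.85 ± 0.29, adjusted p = 0.040) and Sox9 (-0.81 ± 0.28, adjusted p = 0.044). In COL colon only Sox9 fell (-1.06 ± 0.28, adjusted p = 0.029) and 0 rose. Without SPF DSS replicate 3 all 4 SPF calls were lost (adjusted p = 0.075 to 0.17) and 1 other gene of the list rose. The median of this list was -0.24 in SPF and 0.11 in COL colon, against -0.03 and 0.01 over all genes.

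Genes of mucin folding and glycosylation were called in both directions. In SPF colon 3 of 18 rose and 2 fell, shares near the 12.2% and 11.9% of all genes. The chaperone Hspa5 rose (1.66 ± 0.33, adjusted p = 0.0023), with Galnt3, which starts O-glycans (1.00 ± 0.26, adjusted p = 0.013), and the disulfide isomerase Pdia6 (0.90 ± 0.25, adjusted p = 0.017), while the O-glycan branching enzyme Gcnt3 fell (-1.45 ± 0.26, adjusted p = 0.0012), as did Ern2, the call lost without SPF DSS replicate 3 (-0.79, adjusted p = 0.091). In COL colon Galnt3 rose (1.42 ± 0.26, adjusted p = 0.0041) and Gcnt3 fell (-0.88 ± 0.25, adjusted p = 0.044), 1 of 18 each way.

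Of 18 other goblet cell secreted and granule genes, 6 fell and 0 rose in SPF colon, beside 11.9% and 12.2% of all genes. Their median was -0.68, against -0.03 over all genes. Clca1, a goblet cell metalloprotease that processes mucus, fell from 2154 ± 276 to 227 ± 162 CPM (-3.17 ± 0.58, adjusted p = 0.0024), and Klk1, a kallikrein, from 1064 ± 130 to 129 ± 126 CPM (-2.96 ± 0.69, adjusted p = 0.011). The actin-severing Scin (-2.04 ± 0.32, adjusted p = 0.00062), the potassium channel gene Kcnma1 (-0.81 ± 0.22, adjusted p = 0.013), Reg4 and Bcas1 were the others. Without SPF DSS replicate 3 Kcnma1 was lost (-0.66, adjusted p = 0.067), while Clca1 (-2.67) and Klk1 (-2.44) stayed called. In COL colon Clca1 (-2.50 ± 0.56, adjusted p = 0.017) and Scin (-1.07 ± 0.31, adjusted p = 0.046) fell, 2 of 18, and 0 rose, beside 3.0% and 4.14% of all genes.

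Of the transmembrane mucin and mucus release genes, 2 of 9 fell in SPF colon, the chloride exchanger Slc26a3 (-1.83 ± 0.27, adjusted p = 0.00038) and the protease Mep1a (-2.07 ± 0.40, adjusted p = 0.0022), and Muc1 rose (1.52 ± 0.45, adjusted p = 0.023). In COL colon Slc26a3 fell (-0.99 ± 0.26, adjusted p = 0.029) and 0 rose. Of 8 genes of type 2 and IL-22 signalling that passed the filter, Il4ra and Socs3 rose in SPF (2.56 ± 0.32, adjusted p = 0.00015, and 3.60 ± 0.62, adjusted p = 0.0018) and in COL colon (1.38 ± 0.31, adjusted p = 0.013, and 3.08 ± 0.60, adjusted p = 0.0091). Transcripts of the cytokines Il4, Il5 and Il22 had no count in any of the 12 colon libraries, and Il13 had 1 count in all of them together.

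In ileum, the comparisons with germ-free mice ask what the microbiota does to these genes without injury. At 6 weeks, 1 of 10 members rose in SPF against GF mice and 0 fell, beside 4.36% of all genes that rose and 3.33% that fell. In COL against GF mice 1 rose and 1 fell, beside 2.78% and 1.86%. At 10 weeks, 0 members were called in SPF against GF mice in edgeR, beside 6.20% of all genes called in either direction, with 4 members and 2488 genes at an unadjusted p under 0.05 and 1 member, Retnlb, and 1073 genes called by DESeq2. In COL against GF mice 0 rose and 2 fell, beside 5.11% and 4.04%. The SPF and the COL comparison at each age share the 3 germ-free libraries.

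Retnlb was the gene that rose. At 6 weeks it stood at 189, 182 and 142 CPM in germ-free, 847, 970 and 641 CPM in SPF and 855, 1295 and 1580 CPM in COL ileum. Both colonized groups lay wholly above the germ-free one, with a 5.58-fold rise in SPF (2.48 ± 0.55, adjusted p = 0.015) and an 8.71-fold rise in COL mice (3.12 ± 0.56, adjusted p = 0.0063). The SPF call was lost without any 1 of the 3 germ-free libraries (adjusted p = 0.052 to 0.065) and without SPF replicate 2 (0.056).

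At 10 weeks Retnlb read 168, 182 and 251 CPM in germ-free, 295, 492 and 1369 CPM in SPF and 384, 713 and 938 CPM in COL ileum. No colonized library overlapped the germ-free ones, but the spread within the colonized groups was wide, and neither difference passed (1.94 ± 0.54, adjusted p = 0.054 for SPF, and 1.75 ± 0.54, adjusted p = 0.062 for COL), although both did in DESeq2 (adjusted p = 0.0049 and 0.011) and with library totals (0.047 and 0.043). The COL difference also passed with the replicate block (1.70, adjusted p = 0.036), with only the groups compared (0.0042) and without COL replicate 1 (0.044). The block on replicate number was shared by all ileum groups, so it did not pair the SPF and germ-free libraries. With it the SPF difference was 1.78 and passed (adjusted p = 0.044). Without SPF replicate 3, the library low in smooth muscle markers, it was 0.96 (adjusted p = 0.18). Over both ages, all 12 colonized libraries were above all 6 germ-free ones for Retnlb, as for 1.25% of all genes.

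Zg16 and Tff3 went the other way. Zg16 was at 9385, 10373 and 11223 CPM in germ-free, 5937, 6488 and 7004 CPM in SPF and 6665, 5675 and 4091 CPM in COL ileum at 6 weeks, with both colonized groups wholly below. It fell in COL mice (-0.69 ± 0.20, 1.61-fold, adjusted p = 0.046) and did not pass in SPF mice (-0.48 ± 0.20, adjusted p = 0.16), where it did with library totals in place of TMM scaling (-0.67, adjusted p = 0.019). The COL call was lost with replicate number as a block (adjusted p = 0.071) and on leaving out any of the 3 germ-free libraries or COL replicates 2 or 3.

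At 10 weeks Zg16 was at 10050, 9518 and 10696 CPM in germ-free, 5629, 7492 and 7151 CPM in SPF and 5956, 4183 and 6269 CPM in COL ileum. It fell 1.84-fold in COL mice (-0.88 ± 0.20, adjusted p = 0.0051), a call kept in all 12 alternatives (adjusted p = 9e-05 to 0.044), and did not pass in SPF mice (-0.52 ± 0.20, adjusted p = 0.14).

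Tff3 at 10 weeks was at 3669, 3509 and 4609 CPM in germ-free, 2377, 3238 and 2876 CPM in SPF and 2882, 2078 and 2723 CPM in COL ileum. It fell 1.53-fold in COL mice (-0.62 ± 0.19, adjusted p = 0.036), a call lost without COL replicate 2 (adjusted p = 0.19), COL replicate 3 (0.054) or germ-free replicate 3 (0.19), and was not called in SPF mice (-0.42 ± 0.19, adjusted p = 0.21). At 6 weeks it was at 3749, 3294 and 3852 CPM in germ-free against 2228 to 2718 CPM in SPF and 2041 to 2722 CPM in COL mice, without overlap and without a call (-0.34 ± 0.19, adjusted p = 0.33, and -0.35 ± 0.19, adjusted p = 0.34), and passed in both with library totals (-0.53, adjusted p = 0.046, and -0.58, adjusted p = 0.038). Over both ages, all 6 germ-free libraries were above all 12 colonized ones in CPM for Zg16 and Tff3, as for 2.82% of all genes. CPM leaves out the TMM factors used in the tests. For Tff3 the lowest germ-free library (3294 CPM, factor 1.08) and the highest colonized one (3238 CPM, factor 1.02) change order once divided by them. Zg16 stayed apart with these factors.

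The mucin itself was not called in any ileum comparison. Muc2 stood at 4046 to 5274 CPM in germ-free, 3559 to 4035 CPM in SPF and 3390 to 5092 CPM in COL ileum at 6 weeks. SPF lay just below germ-free mice there without overlap in CPM. The groups overlap once divided by the TMM factors of the tests (0.892 for SPF replicate 1 and 1.02 for germ-free replicate 3). Muc2 had a log2 fold change within 1 SE of 0 there. At 10 weeks it was at 5199, 5246 and 5707 CPM in germ-free, 4021, 5556 and 8786 CPM in SPF and 4131, 3730 and 4427 CPM in COL ileum. COL lay wholly below germ-free at 10 weeks (-0.39 ± 0.23, adjusted p = 0.36). The highest value, 8786 CPM, belongs to SPF replicate 3, and without that library the SPF difference from germ-free mice turned from 0.26 ± 0.23 to -0.18 (adjusted p = 0.61 and 0.74).

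The remaining members gave no call against germ-free ileum. Fcgbp ranged from 513 to 1116 CPM over the 18 ileum libraries, Agr2 from 354 to 532 CPM, Atoh1 from 26.2 to 69.8 CPM, Spdef from 10.8 to 25.5 CPM, Capn9 from 8.47 to 17.6 CPM and Sytl2 from 11.9 to 28.3 CPM. The largest differences among them were Sytl2 in SPF at 10 weeks (0.55 ± 0.26, adjusted p = 0.26), Fcgbp in COL at 10 weeks (-0.48 ± 0.21, adjusted p = 0.17) and Atoh1 in COL at 10 weeks (-0.36 ± 0.26, adjusted p = 0.48). Fcgbp passed there without COL replicate 3 (-0.74, adjusted p = 0.042). The plot of colonized against germ-free ileum shows Retnlb above and Zg16 and Tff3 below 0 in all 4 comparisons.

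**Figure D5:**
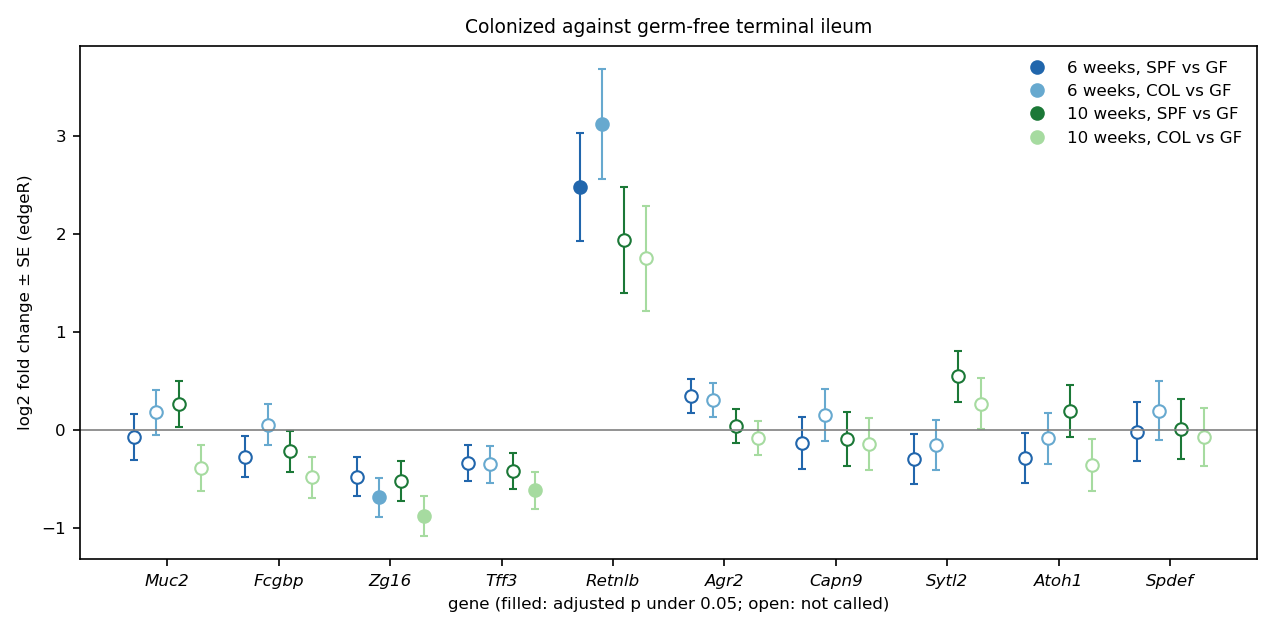
Log2 fold change ± SE of the 10 genes in SPF and COL against germ-free ileum at 6 and 10 weeks (edgeR), filled where the adjusted p is under 0.05. Retnlb lies between 1.75 and 3.12, Zg16 between -0.88 and -0.48, and Tff3 between -0.62 and -0.34, with the other 7 genes mostly near 0.

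Cell type markers moved with colonization too. The 12 absorptive cell markers summed to 12217 to 17225 CPM in the 6 germ-free libraries and to 6722 to 10575 CPM in the 12 colonized ones, and the 8 Paneth cell markers to 4436 to 5473 CPM and 5859 to 16387 CPM, whereas the epithelial markers overlapped (11026 to 12484 and 9593 to 12722 CPM). Immune cell markers (10 genes) summed to 48.4 to 169.6 CPM in germ-free, 51.9 to 75.3 CPM in COL at 6 weeks and 580.1 to 1417 CPM in the other colonized libraries. The part of these markers in the results for Zg16, Tff3 and Retnlb was not tested. Per 100 CPM of epithelial markers, Zg16 was at 80.4 to 94.1 in germ-free and 41.8 to 65.9 in colonized ileum, a description with no test.

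Age and timing of colonization gave no calls among the members. Between COL and SPF ileum 0 were called in edgeR at 6 weeks (beside 0.0982% of all genes) and 0 at 10 weeks (beside 0.0907%), with 0 and 1 members and 1048 and 1055 genes at an unadjusted p under 0.05, and 0 members called by DESeq2 at either age. That 1 member was Muc2 at 10 weeks (-0.66 ± 0.23, adjusted p = 0.43), which passed without SPF replicate 1 (-0.92, adjusted p = 0.035) and was -0.22 without SPF replicate 3 (adjusted p = 0.96). Retnlb in COL against SPF ileum at 6 weeks was 0.64 ± 0.52 (adjusted p = 0.82).

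From 6 to 10 weeks 0 members were called in edgeR in SPF (beside 1.37% of all genes), GF (beside 0.0302%) or COL ileum (beside 2.53%), with 1, 0 and 1 members and 2474, 503 and 2322 genes at an unadjusted p under 0.05, and 0 members called by DESeq2 in each. The members at an unadjusted p under 0.05 were Muc2 in SPF (0.58 ± 0.23, adjusted p = 0.18) and Fcgbp in COL mice (-0.50 ± 0.21, adjusted p = 0.20). Retnlb in COL mice, at 855, 1295 and 1580 CPM at 6 weeks and 384, 713 and 938 CPM at 10 weeks, overlapped between the ages (-1.11 ± 0.52, adjusted p = 0.30).

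Whether the difference from germ-free mice changed with age was tested as an interaction. For SPF mice 0 members were called in edgeR (beside 0.0151% of all genes), with 1, Sytl2 (0.84 ± 0.37, adjusted p = 0.55), and 1132 genes at an unadjusted p under 0.05 and 0 members by DESeq2. For COL mice 0 were called (beside 0.144%), with 0 members and 1373 genes at an unadjusted p under 0.05 and 0 members by DESeq2, and Retnlb gave -1.37 ± 0.74 (adjusted p = 0.55).

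Other genes of the mucus pathway were called in ileum, and whether they differ from Muc2 in this was not tested. B3gnt7, which extends O-glycan chains, rose from 8.67 ± 1.97 CPM in germ-free to 157 ± 90.1 CPM in SPF (4.43 ± 0.69, adjusted p = 0.0016) and 104 ± 38.0 CPM in COL ileum (3.85 ± 0.68, adjusted p = 0.0056) at 6 weeks, and it rose in both at 10 weeks (3.17 ± 0.68, adjusted p = 0.015, and 3.71 ± 0.68, adjusted p = 0.0041). Of 19 genes of mucin folding and glycosylation, 4, 3, 2 and 4 rose in SPF and COL at 6 weeks and SPF and COL at 10 weeks, and 0, 0, 0 and 1 fell. Of all genes, 4.36%, 2.78% and 5.11% rose and 3.33%, 1.86% and 4.04% fell in SPF and COL at 6 weeks and COL at 10 weeks. In SPF at 10 weeks 6.20% were called in either direction. Hspa5 was among the risers in all but SPF at 10 weeks, with 1653 ± 297 against 989 ± 110 CPM in SPF at 6 weeks (0.96 ± 0.18, adjusted p = 0.0012), and Pdia6 rose in SPF at 6 weeks (1.01 ± 0.20, adjusted p = 0.0016). Xbp1, the unfolded protein response factor, rose in SPF at 6 weeks (1.07 ± 0.20, adjusted p = 0.00072).

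The transmembrane mucin Muc13 rose from 2073 ± 72.7 CPM to 6050 ± 1826 CPM in SPF (1.77 ± 0.25, adjusted p = 3.7e-05) and 5298 ± 906 CPM in COL ileum at 6 weeks (1.60 ± 0.25, adjusted p = 0.00022), and in COL at 10 weeks (0.99 ± 0.24, adjusted p = 0.0092). Of 8 transmembrane mucin and mucus release genes, 2, 2, 0 and 1 rose and 1, 0, 2 and 2 fell in SPF and COL at 6 weeks and SPF and COL at 10 weeks. The protease Mep1a fell in SPF at 6 weeks (-0.94 ± 0.20, adjusted p = 0.0029) and in both at 10 weeks, as did the chloride channel gene Cftr at 10 weeks (-0.72 ± 0.20, adjusted p = 0.025 in SPF, and -0.93 ± 0.19, adjusted p = 0.0024 in COL). Of 19 other goblet cell genes, 1, 3, 1 and 1 rose and 4, 3, 4 and 3 fell in the 4 comparisons in the same order. The counts of these lists stand beside 4.36%, 2.78% and 5.11% of all genes that rose in SPF and COL at 6 weeks and COL at 10 weeks. There 3.33%, 1.86% and 4.04% fell, and in SPF at 10 weeks 6.20% were called in either direction. Lypd8, which binds flagellated bacteria, rose in each (0.85 to 1.35), though at 10 weeks in SPF not without replicate 3 (0.65, adjusted p = 0.11), and Scin (-1.53 to -1.08), the guanylin gene Guca2a (-1.13 to -0.83) and Best2, a chloride channel gene, fell in each. Kcnma1 also fell in SPF at 10 weeks, a call lost without SPF replicate 3 (-0.66, adjusted p = 0.12). Best2 was low throughout ileum, at 5.08 ± 3.07 CPM in germ-free and 0.0483 ± 0.0836 CPM in SPF mice at 6 weeks. Ang4, an antibacterial ribonuclease, rose in COL at 6 weeks (66.6 ± 10.5 to 223 ± 36.0 CPM, 1.99 ± 0.33, adjusted p = 0.0017). Of 7 genes of type 2 and IL-22 signalling, 3 rose in SPF at 6 weeks, Il4ra, Socs3 and Stat3, and 1, Socs3, in COL at 10 weeks.

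Between tissues, untreated colon and ileum at 10 weeks were compared within each history. In SPF mice 1 of 10 members was higher in colon and 0 lower, beside 15.3% of all genes higher and 17.2% lower. That gene was Capn9, at 43.9, 17.6 and 26.5 CPM in colon and 12.5, 14.4 and 11.6 CPM in ileum, 2.11-fold without overlap (1.07 ± 0.35, adjusted p = 0.016). The call was lost without colon replicate 1 (0.65, adjusted p = 0.19) and without ileum replicate 1 (adjusted p = 0.070).

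In COL mice 1 of 10 was higher in colon and 0 lower, beside 11.9% and 14.3% of all genes. It was Atoh1, at 119.6, 64.8 and 110.8 CPM in colon and 43.5, 39.2 and 26.2 CPM in ileum, 2.56-fold without overlap (1.35 ± 0.29, adjusted p = 0.00048), and the call held in all 12 alternatives. In SPF mice Atoh1 was at 90.1, 75.6 and 91.3 CPM in colon and 36.3, 48.7 and 69.8 CPM in ileum, also without overlap, and did not pass (0.61 ± 0.29, adjusted p = 0.10), though it did without ileum replicate 3 (adjusted p = 0.020). Sytl2 in SPF mice gave 0.71 ± 0.32 (adjusted p = 0.087), and Retnlb 0.64 ± 0.57 (adjusted p = 0.42), which passed without ileum replicate 3 (1.60, adjusted p = 0.041). Muc2, Fcgbp, Zg16, Tff3 and Spdef had log2 fold changes within 1 SE of 0 in both histories.

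Several partners of these genes had larger log2 fold changes between the tissues than the members. They are the genes with the smallest adjusted p in their lists, and the contrast with the members was not tested. Of all genes, 15.3% were higher and 17.2% lower in SPF colon, and 11.9% and 14.3% in COL colon. Of 16 secretory regulators, 7 were higher and 2 lower in SPF colon, among them Foxa2 (3.67 ± 0.29, adjusted p = 8.5e-12), Creb3l1 (3.10 ± 0.36, adjusted p = 1e-07) and Klf4 (1.27 ± 0.18, adjusted p = 8.6e-07), and 7 were higher and 3 lower in COL colon. St6galnac6, a sialyltransferase, stood at 222 ± 127 CPM in SPF colon and 1.65 ± 1.54 CPM in ileum (6.74 ± 0.47, adjusted p = 4.7e-12), while the branching enzyme Gcnt4 was at 3.52 ± 2.18 and 60.7 ± 1.66 CPM (-4.17 ± 0.52, adjusted p = 5.3e-07). Of 19 genes of mucin folding and glycosylation 5 were higher and 4 lower in SPF colon. Of the 37 listed genes called between SPF tissues, 34 stayed called without ileum replicate 3. Those lost were Foxa3 (adjusted p = 0.055), C1galt1 (0.077) and Muc13 (0.1). Best2, at 101 ± 54.1 and 0.271 ± 0.469 CPM, was higher in colon (8.28 ± 1.03, adjusted p = 1.1e-06), and Ang4, at 0.130 ± 0.225 CPM in SPF colon and 143 ± 72.1 CPM in ileum, was lower.

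The members were alike in colon and less so in ileum. Across the 12 colon libraries, the median Pearson correlation of a member's log2 CPM with the other 9 was 0.71 to 0.89 for 8 members, 0.35 for Agr2 and -0.09 for Retnlb. Across the 18 ileum libraries it was 0.05 for Retnlb and 0.14 to 0.43 for the rest, although Zg16 and Tff3 were correlated at 0.93 there and 0.96 in colon. Retnlb was closest to Agr2 in colon, at 0.74. These points share libraries, DSS groups and the library that stood apart, so the values are descriptions without a test.

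Over all 30 libraries, with each tissue's mean taken off, the gene most like each member among 9026 was sought. Zg16 and Tff3 were nearest to each other but for Slc39a5, a zinc transporter gene (r = 0.95 with Tff3). Muc2 was nearest to Bace2 (0.93) and Creb3l1 (0.89), with Tpsg1 and Klk1 next, and Klk1 and Clca1 were among the first 5 for Fcgbp. Sytl2 and Capn9 each had Muc2 as second nearest (0.85 and 0.80), after Zfp704 and Pde2a. Atoh1 was nearest to Gucd1 (0.84) and Spdef to Galnt7, a mucin-type O-glycosylation enzyme (0.71).

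Retnlb and Agr2 had other neighbours. Retnlb was nearest to Vwa5a (0.92) and Gmds (0.91), an enzyme of GDP-fucose synthesis. Gmds stood at 197 to 258 CPM in the 6 germ-free ileum libraries, 215 to 525 CPM in the 12 colonized ones, 158 to 249 CPM in untreated and 171 to 494 CPM in DSS colon. Agr2 was nearest to Slc12a8, a solute carrier gene, at 0.93, with the next, Spink4, at 0.73. Slc12a8 was at 33.0 ± 9.03 CPM in COL DSS against 15.3 ± 3.82 CPM in untreated COL colon. The other resistin-like genes read differently. Retnla was at 44.4 ± 24.9 and 38.3 ± 14.7 CPM in untreated SPF and COL colon and 5.28 ± 7.18 and 6.95 ± 4.93 CPM after DSS, and Retnlg reached 88.3 CPM in SPF DSS replicate 3 and at most 1.86 CPM in any library of another group. Likeness here is over the same 30 libraries and says nothing of shared control.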

How the data were processed

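Whole distal colon and terminal ileum were profiled by 3′ mRNA tag sequencing (QuantSeq), 3 libraries in each of 10 groups. The authors deposited raw counts per gene symbol, and the submitters' processing notes name Trimmomatic 0.36, FastQC 0.11.5, STAR 2.5.3a, HTSeq and the mm10 build. The strand setting and annotation of the counting are not given in the sources used here. The 5 summary lines of each file (unassigned reads) were left out of totals and tests, and 44.6 to 52.7% of reads in colon and 46.5 to 54.1% in ileum libraries fell in genes. Tags come from transcript ends, so transcript length does not enter. Sums, shares and ratios of several genes were read only between libraries, and no level was tested between genes.

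Counts were filtered (filterByExpr), scaled (TMM) and fitted with a robust quasi-likelihood model in edgeR 4.0.16 (R 4.3.3), separately for colon (12855 genes), ileum (13233) and both tissues together (13807). P-values were adjusted by Benjamini-Hochberg over all genes of a fit, with calls under 0.05, and the SE was taken as the absolute log2 fold change divided by the root of its F statistic. CPM is the count scaled to the reads assigned to genes, without TMM, and overlap between libraries was read on CPM. The fitting was tested on simulated data. Alternatives were no filter, RLE size factors, library totals alone, replicate number as a block, only the groups compared, DESeq2 1.42.0 and leaving out each library. Same-numbered SPF and germ-free ileum libraries at 10 weeks deviated together (correlations 0.25, 0.19 and 0.16, against -0.099 for other numbers), so the blocked value is given there.

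The 10 genes, the gene lists and the marker lists were chosen with earlier results of these data known. Named are all 10 members and, from each list, at most 4 called genes per comparison with the smallest adjusted p, and per member the 5 genes with the highest correlation of log2 CPM (mean at least 3). Genes named beyond that, and all ratios, were chosen after their values were seen. Promoter sequences are from RefSeq and positions from GENCODE vM21.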

Additional observations from a re-analysis of the deposited data

How the results depend on the processing

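Of 103 member differences followed (called, or larger than 1 SE), 1344 values under alternatives were computed: 1283 kept their direction and side of the threshold, 37 lost and 22 gained a call, and 2 turned direction. Both turns were Muc2 without SPF ileum replicate 3 at 10 weeks, against germ-free mice (-0.18 to 0.51 over the libraries left out) and in the interaction with age (-0.11 to 0.58), and the cause was not tested. Members called after DSS in COL colon numbered 4 with only the groups compared, against 2. In SPF against germ-free ileum they numbered 3 with library totals, against 1, at 6 weeks, and 1 with library totals, the replicate block or DESeq2, against 0, at 10 weeks. In COL against germ-free ileum at 6 weeks the replicate block gave 1, against 2. Between SPF tissues library totals gave 3 and only the groups compared 0, against 1. Leaving out a library gave 5 to 7 members for DSS in SPF colon (8 with all), 1 in COL colon, 0 to 1 and 1 to 2 for SPF and COL against germ-free ileum at 6 weeks, 0 to 1 and 1 to 3 at 10 weeks, 0 to 1 for COL against SPF ileum at 10 weeks and 0 to 3 between SPF tissues.

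Counts over all genes moved by over 1.5 times in these cases. With only the groups compared they were 1728 (3097) and 1839 (918) for DSS in SPF and COL colon, 0 (1) between DSS groups, 1604 (1018) and 502 (821) for SPF against germ-free ileum at 6 and 10 weeks, 66 (13) and 4 (12) for COL against SPF ileum, 29 (181) and 636 (335) for age in SPF and COL, 6 (2) and 129 (19) for the SPF and COL interactions and 2551 (4484) between SPF tissues, with the main count in parentheses. DESeq2 gave 1383 for DSS in COL colon, 28, 4 and 14 for the untreated, DSS and interaction comparisons of COL with SPF colon, 64 and 43 for COL against SPF ileum, 569, 9 (4) and 710 for age in SPF, germ-free and COL, and 28 and 134 for the interactions. The replicate block gave 0 between DSS groups, 6 for COL against SPF ileum at 10 weeks, 109 for age in SPF and 29 for the COL interaction. No filter gave 8 (0), 7 and 50 for untreated colon and the interactions, and library totals 1 for the SPF interaction. Leaving out a library gave 1915 to 3409 and 376 to 602 for DSS in SPF and COL colon, 0 to 94 between untreated groups (94 without SPF replicate 3), 0 to 29 between DSS groups (29 without SPF replicate 1), 0 to 1 for the colon interaction, 513 to 944 and 311 to 751 for SPF and COL against germ-free ileum at 6 weeks and 437 to 1010 and 713 to 1225 at 10 weeks. It gave 8 to 18 and 5 to 97 for COL against SPF ileum at 6 and 10 weeks (97 without SPF replicate 1), 0 to 415, 0 to 1 and 54 to 320 for age in SPF, germ-free and COL, 0 to 13 and 15 to 31 for the interactions and 3580 to 4644 and 2726 to 3257 between tissues in SPF and COL. The shares of all genes called move with these counts.

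Same-numbered libraries deviated together for every number only in SPF and germ-free ileum at 10 weeks. The block shares its effect across all groups of a fit, so it stands only for a shared number and not for pairs. Capn9, Sytl2 and Spdef rest on 16 to 230 counts per library, which limits their precision.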
